A study of Nothobranchius furzeri with 10 samples.

Results

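A set of 109 genes had lower read levels in every brain sample given antagomiR-29a than in every brain sample given a scrambled control. They were chosen from 26739 listed genes in Nothobranchius furzeri, the turquoise killifish, a vertebrate with a brief natural lifespan that serves as a model of ageing. Levels were taken as CPM, the count of a gene scaled to a library total of 1000000, without correction for gene length. A gene belonged to the set when its mean over the 10 libraries was at least 1 CPM and its highest CPM among the 5 antagomiR-29a libraries lay below its lowest CPM among the 5 control libraries. Of the 17893 genes that reached 1 CPM, 0.609% met this rule. The direction and the separation of the groups were therefore fixed by the choice, and the levels and differences below are given as a description, with no test. With no effect of treatment, chance alone would also place some of the 17893 genes in the set. The reverse rule, with every treated library above every control, was met by 0.581%. How many of the 109 genes arose by chance was not tested, so membership is not read as a response to antagomiR-29a.

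All samples were whole brain of males of strain MZM-0410p aged 22 weeks. The 5 samples of one group carried the label of a scrambled control, for which no dose is stated, and the 5 of the other were labelled antagomiR-29a at 100 pmol. The route of delivery, the time between treatment and sampling, and whether each library came from a separate fish are not stated by the labels. The spread between libraries may thus be partly technical, and in whole tissue fewer cells of a type and less RNA per cell cannot be told apart.

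MicroRNAs of the miR-29 family bind sites in messenger RNAs and lower the stability or translation of those messengers. In mammals their known targets include collagens and other matrix genes. In killifish neurons miR-29 has been linked to ageing and to the control of iron uptake. An antagomir is a chemically altered antisense oligonucleotide that pairs with a microRNA and holds it inactive. As background, block of a microRNA frees its direct targets from repression, so a transcript that ends lower is usually grouped with indirect effects. Whether any of the 109 genes carries a miR-29 site was not analysed here. The deposited tables do not pair their Nfu identifiers with gene names, and none of the identifiers was found in the RefSeq gene table used, so the products of these genes are not named. For the same reason brain and other cell type markers could not be looked up in these libraries. At most 2 genes are given by identifier, the one with the widest gap between the groups and the one with the highest level. The others are described by rank.

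The libraries held 18489730 to 24486735 counts. The 109 genes had from 9 to 109430 counts in a library. Together they took from 1.07% to 1.12% of the counts in the control libraries and from 0.939% to 0.996% in the antagomiR-29a libraries. Their summed level was 10936 ± 198 CPM over the control libraries and 9600 ± 237 CPM over the treated ones (SD, n = 5 each), a difference of 12.2%. A single gene gave 36.8% of this sum, and the 10 genes with the highest CPM gave 61.6%. Without that single gene the sums were 6839 ± 91.5 CPM and 6133 ± 109 CPM (SD, n = 5 each), a difference of 10.3%.

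The rule places every treated library below every control for each gene, and the treated libraries were set side by side for their distance from the controls. Each gene was expressed as a percentage of its own control mean, and the median over the 109 genes was taken in each library. In control replicates 1 to 5 this median was 99.5%, 100.5%, 99.2%, 99.5% and 98.1%. In antagomiR-29a replicates 1 to 5 it was 89.1%, 89.2%, 88.2%, 88.0% and 87.4%. The treated libraries lay within 2 percentage points of each other. The rule favours genes with a small spread, and a median over 109 genes evens out much of the rest. Nothing is therefore read from this closeness.

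**Figure D1:**
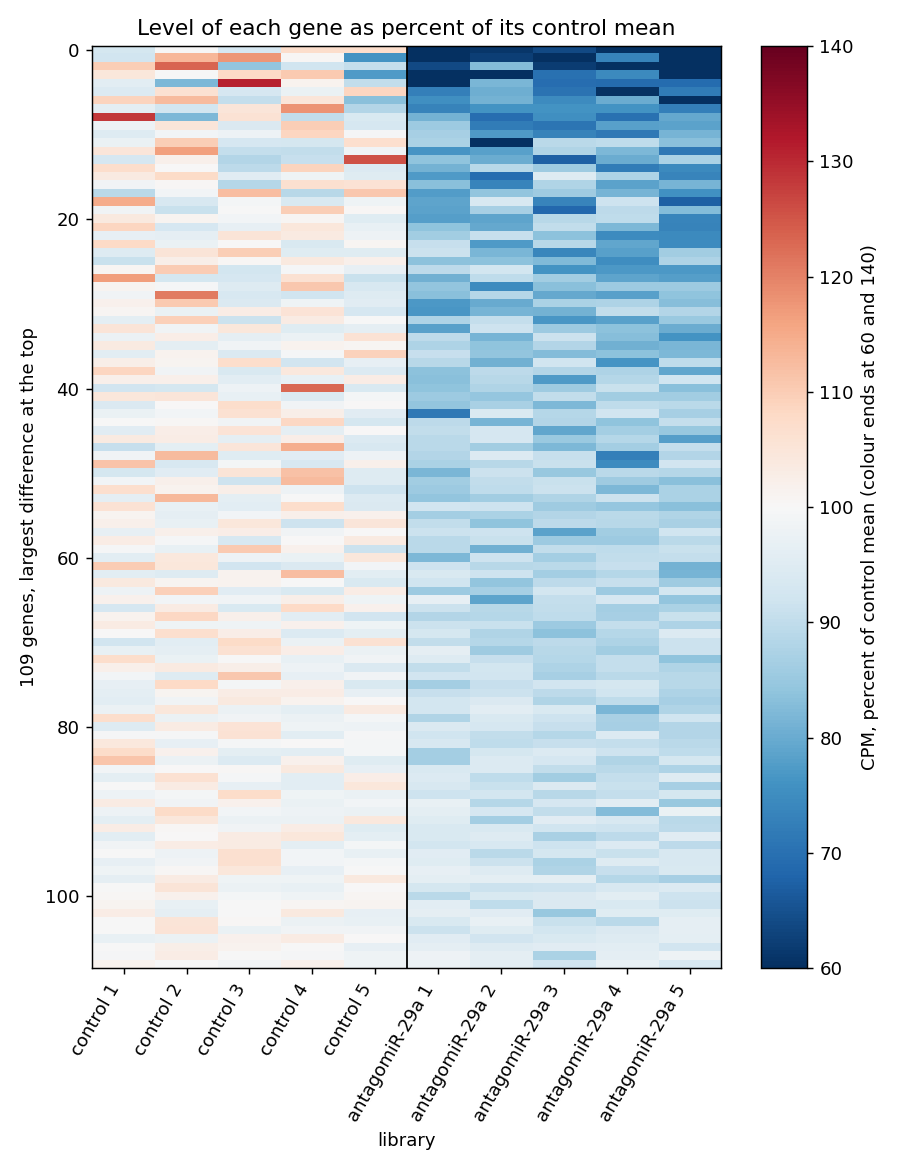
Level of each of the 109 genes (rows, ordered by the ratio of group means) in each of the 10 libraries (columns), as a percentage of that gene's control mean, with the colour scale ending at 60 and 140. The 5 antagomiR-29a columns are on the low side, darkest in the top rows and palest in the bottom rows, where the smallest difference between group means is 4.81%.

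Most of the differences were small. The antagomiR-29a mean was lower than the control mean by a median of 12.5%, with an interquartile range of 9.31% to 17.3% and extremes of 4.81% and 46.4%. The ratio of the antagomiR-29a mean to the control mean was 0.9 or more in 34 genes, between 0.8 and 0.9 in 61 genes, between 0.7 and 0.8 in 9 genes and under 0.7 in 5 genes. No gene of the set reached a halving of its level. The median fitted log2 fold change was -0.19, while over all genes of at least 1 CPM it was 0.0025, and 49.2% of those genes had a lower mean in the antagomiR-29a group.

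The widest gap belonged to Nfu_g_1_010469. Its levels were 11.8, 12.7, 11.8, 13.6 and 13.6 CPM in control replicates 1 to 5, and 6.42, 7.76, 8.11, 5.07 and 6.65 CPM in antagomiR-29a replicates 1 to 5. All control libraries stood close together, and the lowest of them exceeded the highest antagomiR-29a library by 45.5%. The means were 12.7 ± 0.886 CPM and 6.80 ± 1.21 CPM (SD, n = 5 each), a difference of 46.4% and the largest in the set. These levels rest on 225 to 333 counts in the control libraries and 103 to 172 counts in the antagomiR-29a libraries. The gene length implied by the deposited tables was 1632 bases, and corrected for it the gene averaged 5.97 RPKM, which is CPM divided by the gene length in kilobases, rank 80 among the 109.

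The gene with the highest level was Nfu_g_1_008211. It had 3919, 4151, 3862, 4082 and 4469 CPM in control replicates 1 to 5, and 3717, 3451, 3381, 3431 and 3355 CPM in antagomiR-29a replicates 1 to 5. Antagomir replicate 1 stood above the other 4 treated libraries and came within 3.92% of the lowest control. The group means were 4097 ± 239 CPM and 3467 ± 145 CPM (SD, n = 5 each), a difference of 15.4%. With 62512 to 109430 counts in a library, counting error was 0.358% of its level, against a spread within groups of 5.07%. The spread between libraries was thus far above counting error, and its source was not tested. Per length it was also the first of the set, at 489 RPKM for an implied 7728 bases, where the second had 92.3 RPKM and the median gene 10.4 RPKM.

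**Figure D2:**
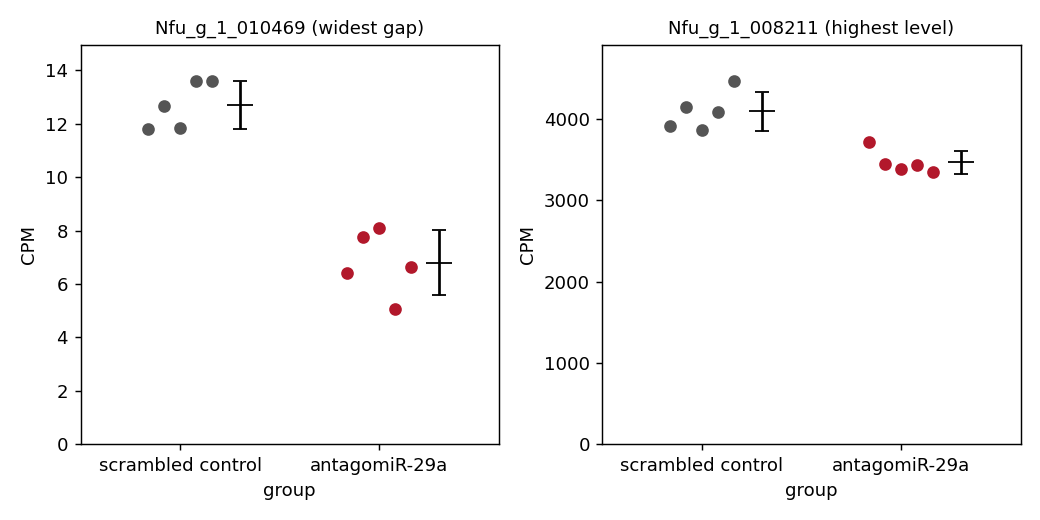
CPM of Nfu_g_1_010469 (left) and Nfu_g_1_008211 (right) in each library, on axes that start at 0, with points for libraries and bars for the mean and SD of each group of 5. The groups are 46.4% apart in the left panel and 15.4% apart in the right, where the lowest control and the highest antagomiR-29a points almost touch.

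Gaps of 10% or more between the groups were found in 3 genes. The second widest gap, 15.8%, belonged to a short transcript of 532 implied bases. It had 15.7, 15.2, 17.1, 19.3 and 14.4 CPM in control replicates 1 to 5 and 11.95, 12.41, 12.44, 12.45 and 11.86 CPM in antagomiR-29a replicates 1 to 5. Its treated libraries lay almost on 1 value, with an SD of 0.291 CPM, whereas its control libraries varied with an SD of 1.91 CPM. The treated libraries held 230 to 275 counts of this gene. Counting error was 5.86% of its level, which is wider than the treated spread. No difference in variability between the groups is therefore read from these SDs. The gene ranked 3 by gap, also at 15.8%, had control levels of 33.5, 37.6, 33.1, 34.5 and 38.5 CPM and antagomiR-29a levels of 25.77, 28.56, 24.99, 21.40 and 25.50 CPM, a difference of 28.7% between the means. Both groups of this gene spread alike, with SDs of 2.47 and 2.56 CPM.

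The genes ranked 4 and 5 by gap had gaps of 9.54% and 9.52%. The first of these had control levels of 24.2, 23.8, 22.7, 26.5 and 22.4 CPM and antagomiR-29a levels of 20.2, 17.9, 19.9, 20.5 and 20.5 CPM. Antagomir replicate 2 was apart on the low side, and the means differed by 17.3%. The other, with 5126 implied bases, was more highly expressed, at 110, 115, 114, 126 and 116 CPM in the control libraries and 101, 89.9, 84.9, 82.9 and 94.3 CPM in the antagomiR-29a libraries. Its means differed by 22.0%.

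Set against the spread within groups, the genes fell in another order. The difference between the means was 6.75 times the pooled SD in a gene of 6998 implied bases, more than in any other member. It had 50.5, 48.2, 49.3, 50.9 and 50.7 CPM in control replicates 1 to 5 and 43.2, 43.6, 44.1, 44.6 and 43.9 CPM in antagomiR-29a replicates 1 to 5. The difference was 12.1%, close to the median of the set, and the separation came from a spread within groups of 1.84%, the lowest of the 109. Nfu_g_1_010469 was next, at 5.58 times the pooled SD. The gene ranked 3, at 5.03 times, had 22.9, 21.2, 21.7, 22.4 and 22.2 CPM in the control libraries and 19.3, 18.5, 19.5, 17.9 and 18.1 CPM in the antagomiR-29a libraries. For the genes ranked 1 and 3 the spread between libraries was below the counting error of 3.21% and 4.87%, respectively. So small an SD enlarges these multiples, and the edgeR adjusted p of the 2 genes was 0.269 and 0.345. Over the whole set the median spread within groups was 5.33% and the median counting error 3.70%, and in 25 of the 109 genes the spread was at or below counting error. The median spread of all genes of at least 1 CPM was 10.9%, but the rule itself favours genes with a small spread.

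The large relative differences lay mostly among genes with few counts. Of the 5 genes with a ratio under 0.7, 4 averaged under 3 CPM. The gene with the second largest difference, 45.1%, had 35, 46, 42, 36 and 35 counts in control replicates 1 to 5 and 14, 26, 16, 28 and 25 counts in antagomiR-29a replicates 1 to 5. The third, with a difference of 40.3%, had 29, 35, 21, 23 and 29 counts in the control libraries and 18, 24, 15, 9 and 17 counts in the antagomiR-29a libraries. Its highest treated library held more counts than 2 of the control libraries, and the groups were apart only after scaling to library size. Its mean of 1.05 CPM was the lowest in the set, and 9 genes with groups apart in the same direction fell below the limit of 1 CPM, the highest of them at 0.906 CPM. The fourth, with a difference of 39.5%, had 39, 40, 38, 39 and 35 counts in the control libraries and 24, 18, 24, 28 and 23 counts in the antagomiR-29a libraries. The fifth, with a difference of 34.1%, had 63, 58, 81, 63 and 72 counts in the control libraries and 28, 59, 42, 46 and 52 counts in the antagomiR-29a libraries.

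In the 4 genes next in CPM after Nfu_g_1_008211 the differences ran from 4.98% to 13.2%. The gene second in CPM, with 9698 implied bases, had 652, 667, 661, 650 and 630 CPM in control replicates 1 to 5 and 628, 619, 622, 625 and 602 CPM in antagomiR-29a replicates 1 to 5. Control replicate 5 and antagomiR-29a replicate 1 differed by 0.337%, while the means differed by 5.02%. The gene ranked 3 in CPM had 555, 552, 518, 551 and 506 CPM in the control libraries and 478, 500, 457, 475 and 419 CPM in the antagomiR-29a libraries, a difference of 13.2%. The genes ranked 4 and 5 had control means of 257 ± 4.59 CPM and 250.2 ± 8.62 CPM and antagomiR-29a means of 244 ± 11.4 CPM and 234 ± 11.96 CPM (SD, n = 5 each). In both, antagomiR-29a replicate 3 lay apart on the low side, at 225 CPM and 212 CPM, and the other 4 treated libraries came close to the controls.

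The size of the difference went with the level. The set held 10 of the 3464 genes between 1 and 5 CPM (0.289%), 24 of the 5251 between 5 and 20 CPM (0.457%), 57 of the 6822 between 20 and 100 CPM (0.836%) and 18 of the 2356 at 100 CPM or more (0.764%). The median differences of the members in these 4 classes were 22.5%, 16.6%, 11.1% and 8.45%. The median counting errors of these members were 12.8%, 6.25%, 3.49% and 1.74%. The rule sets no smallest difference. Groups that scatter more are apart in all 25 pairs of a control and a treated library only when their means differ by more. The part of depth in this trend was not tested.

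**Figure D3:**
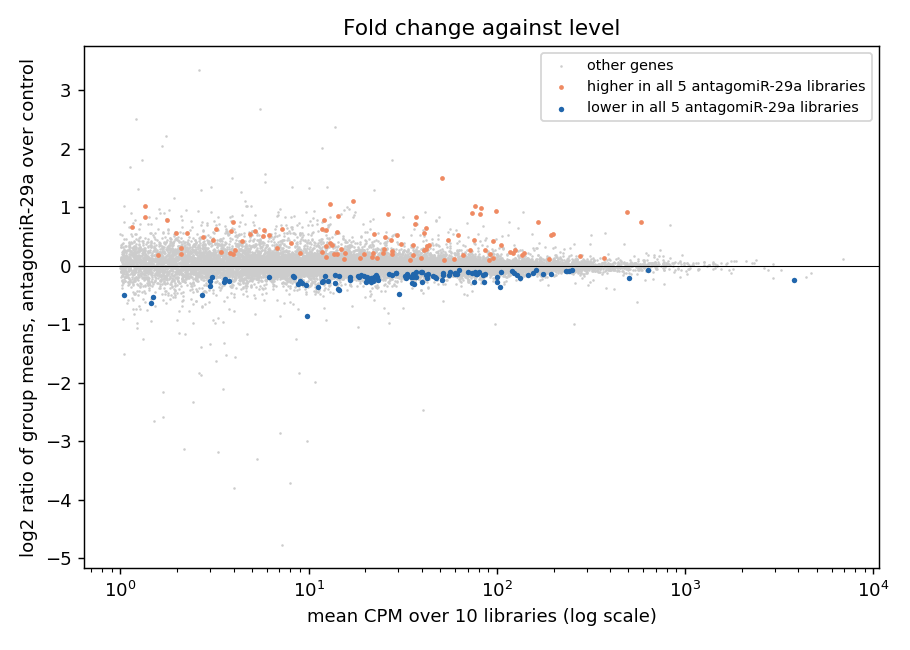
Log2 ratio of the group means, antagomiR-29a over control, against mean CPM over the 10 libraries (log scale) for the 17893 genes of at least 1 CPM. The 109 genes lower in all 5 treated libraries lie close under the line at 0, with a median ratio of 0.875, where grey genes further out have groups that overlap, and the 104 genes higher in all 5 reach further from it, to a ratio of 2.86.

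The gap between the lowest control library and the highest antagomiR-29a library was narrow in most of the set. Its median was 1.74%, it was 5% or more in 14 genes, and it was under 1% in 34 genes. To set it against counting error, exact 95% Poisson intervals were taken for the counts of the 2 libraries that face each other across the gap. These intervals, which cover counting error only, were apart in 4 of 109 genes. The rule itself had set these 2 libraries on either side of the gap, so the count is a description and not a test. Among them were Nfu_g_1_010469, Nfu_g_1_008211 and the gene ranked 5 by gap. The remaining one had a gap of 7.32%.

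The edge of the rule ran through many similar genes. The 3 members with the narrowest gaps had 173.149 CPM in the lowest control against 173.147 CPM in the highest treated library, 76.70 against 76.69 CPM, and 3.93 against 3.92 CPM. The 3 nearest genes outside had 57.3427 against 57.3442 CPM, 173.20 against 173.24 CPM, and 33.98 against 34.00 CPM. Just outside, 49 genes missed by under 1%. A further 96 genes were lower in 24 of the 25 pairs of libraries and 185 in 23 of them.

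**Figure D4:**
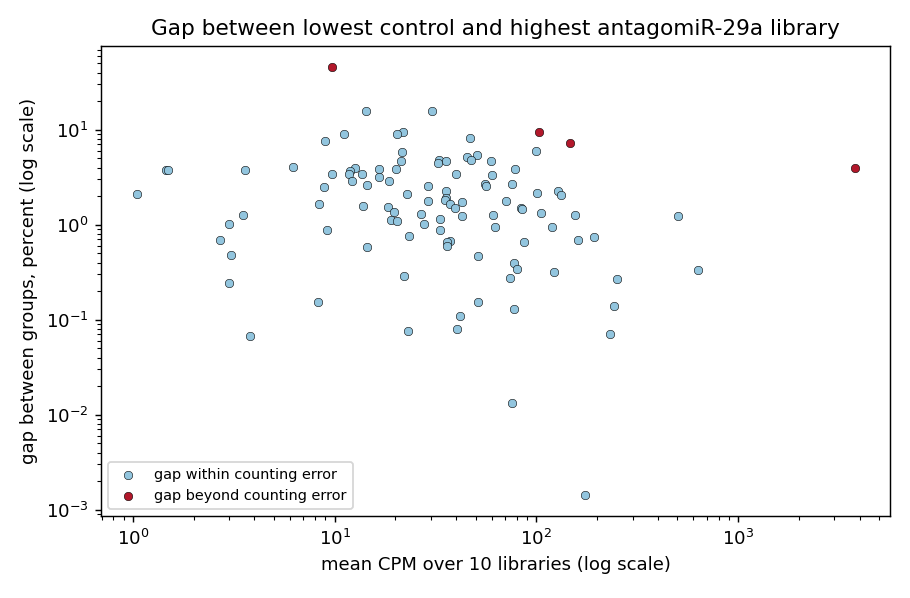
Gap between the lowest control and the highest antagomiR-29a library, in percent, against mean CPM (both log scales) for the 109 genes, with the 4 genes whose 95% counting intervals were apart in red. Most genes have gaps under 5%, and Nfu_g_1_010469 stands alone at 45.5%.

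The libraries that limited the set differed from gene to gene. The lowest control was replicate 5 in 31 of the 109 genes, replicate 4 in 23, replicate 1 in 21, replicate 3 in 18 and replicate 2 in 16. The highest treated library was replicate 1 in 29 genes, replicate 2 in 28, replicates 4 and 5 in 18 each and replicate 3 in 16. For the 104 genes higher in all treated libraries, control replicates 1 to 5 were the limit in 19, 12, 21, 26 and 26. AntagomiR-29a replicates 1 to 5 were the limit there in 28, 31, 23, 10 and 12. Whether either set departs from an even share was not tested. When 1 library was left out the rule admitted 157 to 228 genes, the most without antagomiR-29a replicate 2 and the fewest without control replicate 2. At least 108 of the 109 were among them each time, which the rule makes near certain.

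Library scaling decided the membership of some genes. With TMM-scaled library sizes, which differ from the plain totals by about 1% at most, 92 of the 109 genes remained and 6 others entered. RLE scaling kept 93 and upper-quartile scaling kept 100. Nfu_g_1_010469 and Nfu_g_1_008211 were lower in the treated group under each fitted alternative, which their choice by the rule makes near certain.

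In an edgeR quasi-likelihood fit over 18976 genes, 1 of the 109 genes was called lower at a Benjamini-Hochberg adjusted p under 0.05, namely Nfu_g_1_010469, and 0.00527% of all tested genes were called lower. Since the members were chosen on the same contrast, nothing is read from this count. The call of Nfu_g_1_010469 (edgeR adjusted p = 0.0355) was lost in 9 of the 10 fits without 1 library, the exception being the fit without antagomiR-29a replicate 4, with adjusted p from 0.0461 to 0.143 over the 10. With a replicate block its adjusted p was 0.931. An unadjusted edgeR p under 0.05 was found in 102 of the 109 genes, and this too follows from the choice. With the same direction it was found in 2.59% of all tested genes. Such a limit passes some genes in each direction even where no gene differs, so nothing is read from that share. All 109 passed the count filter. The fitted log2 fold changes were -0.90 with an SE of 0.12 for Nfu_g_1_010469 and -0.24 with an SE of 0.05 for Nfu_g_1_008211. These SEs were derived from the test statistic, and their median over the 109 genes was 0.06. DESeq2 called 16 genes lower (0.0831% of those it tested), 14 of them members, on the same contrast.

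The median length of the set was above that of all genes, and length was not used by the rule. The median implied length was 3916 bases in the set, with an interquartile range of 2345 to 5415 bases, and 2778 bases over all genes of at least 1 CPM that had a length. All genes with a length were divided into 4 classes of 4473 genes each. Of class 1, the shortest, up to 1389 bases, 10 genes belonged to the set (0.224%), followed by 25 of class 2 (0.559%), 36 of class 3 (0.805%) and 38 of class 4, from 4815 bases (0.850%). The 104 genes higher in all treated libraries ran the other way, with 35, 29, 22 and 18 genes from class 1 to class 4 and a median of 1926 bases. Level differed with length as well, since the median CPM of classes 1 to 4 was 10.1, 16.5, 24.99 and 50.9. Within classes of level the set and all genes had median lengths of 2385 and 1791 bases between 1 and 5 CPM, 1992 and 2109 bases between 5 and 20 CPM, 4414 and 3447 bases between 20 and 100 CPM, and 5278 and 5023 bases at 100 CPM or more. The genes that were higher had 1732, 1532, 2507 and 3118 bases in these classes. The set was thus longer than all genes in 3 of the 4 classes, by a small margin in the last.

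Over all genes, the share with a lower antagomiR-29a mean also rose with length, though these genes share the same 10 libraries and are not replicates. A lower antagomiR-29a mean was found in 42.2% of class 1, 45.4% of class 2, 51.1% of class 3 and 58.1% of class 4. Over the genes in neither set, the median log2 deviation of class 4 minus that of class 1 was 0.037, 0.028, -0.014, 0.016 and 0.0079 in control replicates 1 to 5. It was -0.031, 0.055, -0.028, -0.077 and -0.016 in antagomiR-29a replicates 1 to 5. The group means were 0.015 ± 0.020 and -0.019 ± 0.048 (SD, n = 5 each), and the two-sided exact permutation p was 0.183. That value turned on antagomiR-29a replicate 2, which lay above every control. Without it the other 4 treated libraries all lay below the controls, with a mean of -0.038 ± 0.027 (SD, n = 4) and an exact permutation p of 0.0159, the smallest that 4 against 5 allow. Without any 1 of the other 9 libraries the exact permutation p was 0.143 to 0.365. All these comparisons, the one without antagomiR-29a replicate 2 included, were added after seeing the data. That replicate was singled out by its own value, so nothing is concluded from the lowest p. After the trend of each library on length was removed, a step chosen after seeing the data, 77 of the 109 genes remained among 107 genes lower in all treated libraries. The median length was then 3379 bases in those lower and 2711 bases in those higher. The part of RNA quality in this pattern was not tested.

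**Figure D5:**
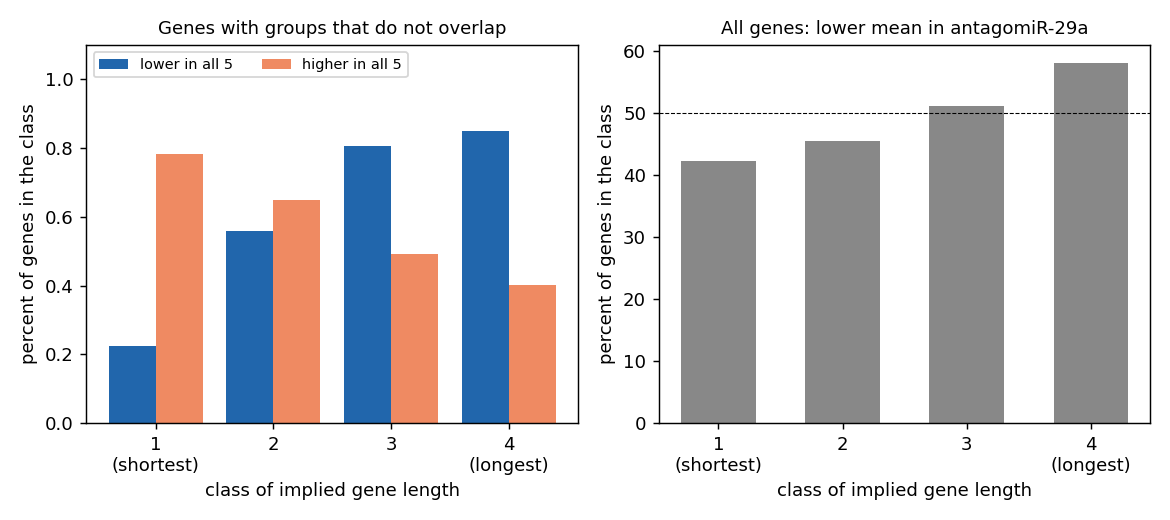
Left, percent of genes in each class of implied length that were lower (blue) or higher (orange) in all 5 antagomiR-29a libraries. Right, percent of all genes in each class with a lower antagomiR-29a mean, with a dashed line at 50. The blue bars climb from 0.224% to 0.850% and the grey bars from 42.2% to 58.1% towards class 4, the longest.

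How the 109 genes varied together within groups was described by correlation. Deviations of log2 CPM from the group mean were correlated for the 5886 pairs of genes over the same 10 libraries. The median r was 0.020, against 0.00 for all pairs of genes of at least 1 CPM, and 0.917% of the pairs exceeded 0.8, against 0.919% of all pairs. In the other tail 0.221% of the pairs lay under -0.8, against 0.663% of all pairs. A member had at most 4 others above 0.8, and 38 had none, among them both Nfu_g_1_010469 and Nfu_g_1_008211. These values describe pairs that share libraries and depth, and no test was made.

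In the order of the deposited table, 4 of the 109 genes (3.67%) had another member within 10 rows, while 8.72% of all genes of at least 1 CPM had a member that near. The closest pair lay 2 rows apart, and their deviations within groups correlated at 0.46. Genome positions were not analysed here.

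Beside the 104 genes that were higher in all treated libraries (0.581% of those considered), the set had a median level of 35.6 CPM, where those genes had 24.995 CPM. The median ratio of means was 0.875 in the genes that were lower and 1.30 in the genes that were higher, and 7 of the latter exceeded a ratio of 2. Gaps of 10% or more were found in 3 and 32 genes respectively, and gaps beyond counting error in 4 and 19. Median levels per length were 10.4 RPKM in the genes that were lower, 11.9 RPKM in those that were higher and 8.56 RPKM in all. Both sets come from the same libraries and the same rule, and no test of the difference between them was made.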

How the data were processed

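RNA of 10 brain samples was sequenced after preparation with the TruSeq RNA kit, version 2, per the labels' protocols. The submitters' processing notes name STAR 2.4.1d, featureCounts 1.4.6-p4 and bcl2fastq 1.8.4. Build, annotation, strandedness and other counting settings are not stated, so overlapping and near-identical genes cannot be told apart. The deposited count table holds whole-number counts per gene and library, not normalised by the authors. The entries of the deposited RPKM table match division by the 10 library totals in turn down the rows and not by each library's own total. Over 4159 genes with at least 1000 counts and an RPKM above 5 in each library, the length implied by count and RPKM varied between libraries by a median of 0.0011% with the totals in turn and 12.1% with own totals. Deposited RPKM were used only to recover gene lengths, for genes reaching 0.1 RPKM, and as an alternative. RPKM values in the text were computed from the counts, these lengths and own totals.

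Groups came from the perturbation label. The members, lists and alternatives were chosen with earlier results of these data known. CPM used column sums. The identifiers printed are the member with the largest ratio of lowest control to highest antagomiR-29a CPM and the member with the highest mean CPM. Members described by rank come first by gap, mean CPM, ratio of means or difference over pooled SD. The last of these orders, the comparisons by length and the counting intervals were chosen after seeing the data.

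The fit across genes used edgeR 4.0.16 in R 4.3.3 (filterByExpr with a minimum count of 10 and total of 15, TMM, robust quasi-likelihood test, group as the only term, Benjamini-Hochberg limit of 0.05). Alternatives used DESeq2 1.42.0, limma 3.58.1 (voom), other scalings and low-count limits, a replicate block, and leaving out each library. The SE of an edgeR log2 fold change was derived as its absolute value over the square root of the F statistic of the test. Correlations used log2(CPM + 0.5). Spread within groups is the root mean square of both groups' coefficients of variation, and counting error is the Poisson value. The fit and the rule were tested on simulated data. Between replicates the chi-square of the counts was 11.9 to 28.9 times its degrees of freedom over 20 pairs, and none was taken as a duplicate. Cell type and miR-29 target lists could not be used, because 0 identifiers occur in the RefSeq table (assembly NfurGRZ-RIMD1, 38438 genes).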

Additional observations from a re-analysis of the deposited data

Results flagged for a closer look

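For the values given per library, each group of 5 was searched for a library far from the other 4, in 42 groups in all. Chance flags about 1 group in 20 when values are unselected and separate. Most of these groups hold members chosen by the rule on the same values, and some groups share genes. That rate therefore does not apply here, and nothing is read from the number flagged. In all, 4 were found, each in the antagomiR-29a group. Nfu_g_1_008211 stood at 3717 CPM in antagomiR-29a replicate 1, where the next library had 3451 CPM. The gene ranked 4 by gap stood at 17.9 CPM in replicate 2, with the next at 19.9 CPM. The genes ranked 4 and 5 in CPM stood at 224.5 CPM and 212.4 CPM in replicate 3, with the next libraries at 246.9 CPM and 238.2 CPM. In the last 3 the outlying library enlarges the difference between the means, and in Nfu_g_1_008211 it reduces it.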

How the results depend on the processing

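The number of genes lower in all antagomiR-29a libraries, 109, stayed within 1.5 times under TMM (98), RLE (100) and upper-quartile scaling (111), with CPM limits of 0.1 (115) and 5 (99), and with the length trend removed (107). With the deposited RPKM it was 11, of which 4 were members, and its divisors add to the scatter of each gene. With 1 library left out it was 157 to 228, and the rule then has fewer libraries to satisfy. The number of genes called lower by edgeR was 1, and also 1 with RLE scaling, without the count filter and with limma-voom. DESeq2 called 16, the cause of which was not tested. Leaving out 1 library gave 0 to 1 calls, with 0 in 9 of 10 fits and 397 to 634 genes lower at an unadjusted p under 0.05. The single fit with a call was the one without antagomiR-29a replicate 4. With a replicate block on the numbers in the titles 0 genes were called lower, with 271 at an unadjusted p under 0.05. The 4 numbers that occur in both groups had deviations correlated at 0.0072, -0.32, -0.092 and -0.086. No treated sample was closest to the control of equal number, but so few samples cannot exclude pairs. The labels do not state that equal numbers pair samples, so the numbers were not taken as pairs in the main fit. Over 15 alternatives the log2 fold change of Nfu_g_1_010469 ran from -0.97 to -0.81 (adjusted p from 2.67e-08 to 0.931, under 0.05 in 5), and that of Nfu_g_1_008211 from -0.27 to -0.21 (adjusted p from 0.00400 to 0.9997, under 0.05 in 1). The 10 members under 5 CPM had a median counting error of 12.8% of the level and a median spread within groups of 13.2%. The part of depth in their differences was not tested.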
